A study of Mus musculus with 18 samples.

Results

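The matrix metalloproteinases, the ADAMTS and ADAM proteases and the tissue inhibitors of metalloproteinases were followed in kidney cortex of healthy and lupus-prone mice. Members were chosen by name alone, as every gene whose symbol starts with Mmp, Timp, Adamts or Adam followed by a digit, which gave 52 of the 15035 genes with a value. They are 16 Mmp, 3 Timp, 17 Adamts and 16 Adam genes. A further 10 genes of these families (Mmp1a, Mmp1b, Mmp8, Mmp16, Mmp21, Mmp24, Mmp25, Timp4, Adamts17 and Adamts19) had no row and were not analysed here.

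All of these proteases belong to the zinc-dependent metzincins. The MMPs together degrade collagens, elastin, basement membrane and many secreted proteins. Most are made as inactive precursors that furin, plasmin or another MMP activates, and the TIMPs block the active site. ADAMTS enzymes are secreted and cut proteoglycans, procollagens or von Willebrand factor, while membrane-bound ADAMs release cytokines, receptors and growth factors from the cell surface. In kidney, the balance of these enzymes and inhibitors is studied for its part in glomerular basement membrane turnover, leukocyte entry and scarring.

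RNA sequencing was done on kidney cortices of 18 mice in 6 groups of 3. Healthy controls were vehicle-treated wild-type MRL/MpJ animals. The remaining groups, 15 mice, all carried the lpr mutation of the death receptor Fas (MRL/lpr), with which this strain develops a lupus-like nephritis, so that healthy and diseased mice differ in genotype as well as in disease. MRL/lpr mice received vehicle, MMF (mycophenolate mofetil, which blocks purine synthesis in lymphocytes), FK506 (tacrolimus, a calcineurin inhibitor), prednisone (a glucocorticoid) or a treatment named multi-target. The labels give no dose, age or sex and do not say what the multi-target treatment contained. Values are the authors' normalized log2 expression levels, 1 per gene and mouse, so a difference of 1 is a doubling. Mice are named by the number in their title. These numbers pair no animals. In the main fit, the p-values and standard errors (SE) of a comparison rest on 1 spread per gene, pooled within all 6 groups of 3. They do not measure the spread of the compared groups alone.

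Depth per library ran from 28939845 to 41066953 reads, as recovered from the steps of the log2 values. Proximal tubule markers were at 12.37 or above and podocyte markers at 8.31 or above on the log2 scale in every mouse, so both cell types of kidney cortex were present. Several libraries stood apart. Vehicle mouse 17 had summed adipocyte markers of 14.16 and urothelium markers of 10.90, where the medians of its group were 6.71 and 7.87, and FK506 mouse 12 had adrenal cortex markers of 14.01, where its group's median was 8.78. Vehicle mouse 36 had the highest fibroblast marker sum of all groups, 15.71, and also the lowest proximal tubule sum of the 18 mice, 16.83, and the lowest loop of Henle and distal tubule sum, 16.69. In bulk tissue, fewer cells of a type and less RNA per cell cannot be told apart.

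In healthy kidney Timp3, the matrix-bound inhibitor that also blocks Adam17 and several ADAMTS enzymes, was by far the most abundant member per length. Its median over the 3 healthy mice was 14586 reads per kilobase of exon. The shedding proteases Adam9 and Adam10 followed with 1271 and 900 reads per kilobase, and Timp2 came next with 534. At the other end were Mmp12 with 10.6, Mmp19 with 7.62 and Adam23 with 7.42 reads per kilobase. Most members were scarce. Their median was 224 reads per gene and library, against 805 for all genes, and Mmp7 was the member that fell under 10 reads in a library. Timp3 ranked 26 of all genes by mean log2 level, whereas Timp1 ranked 14485.

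**Figure D1:**
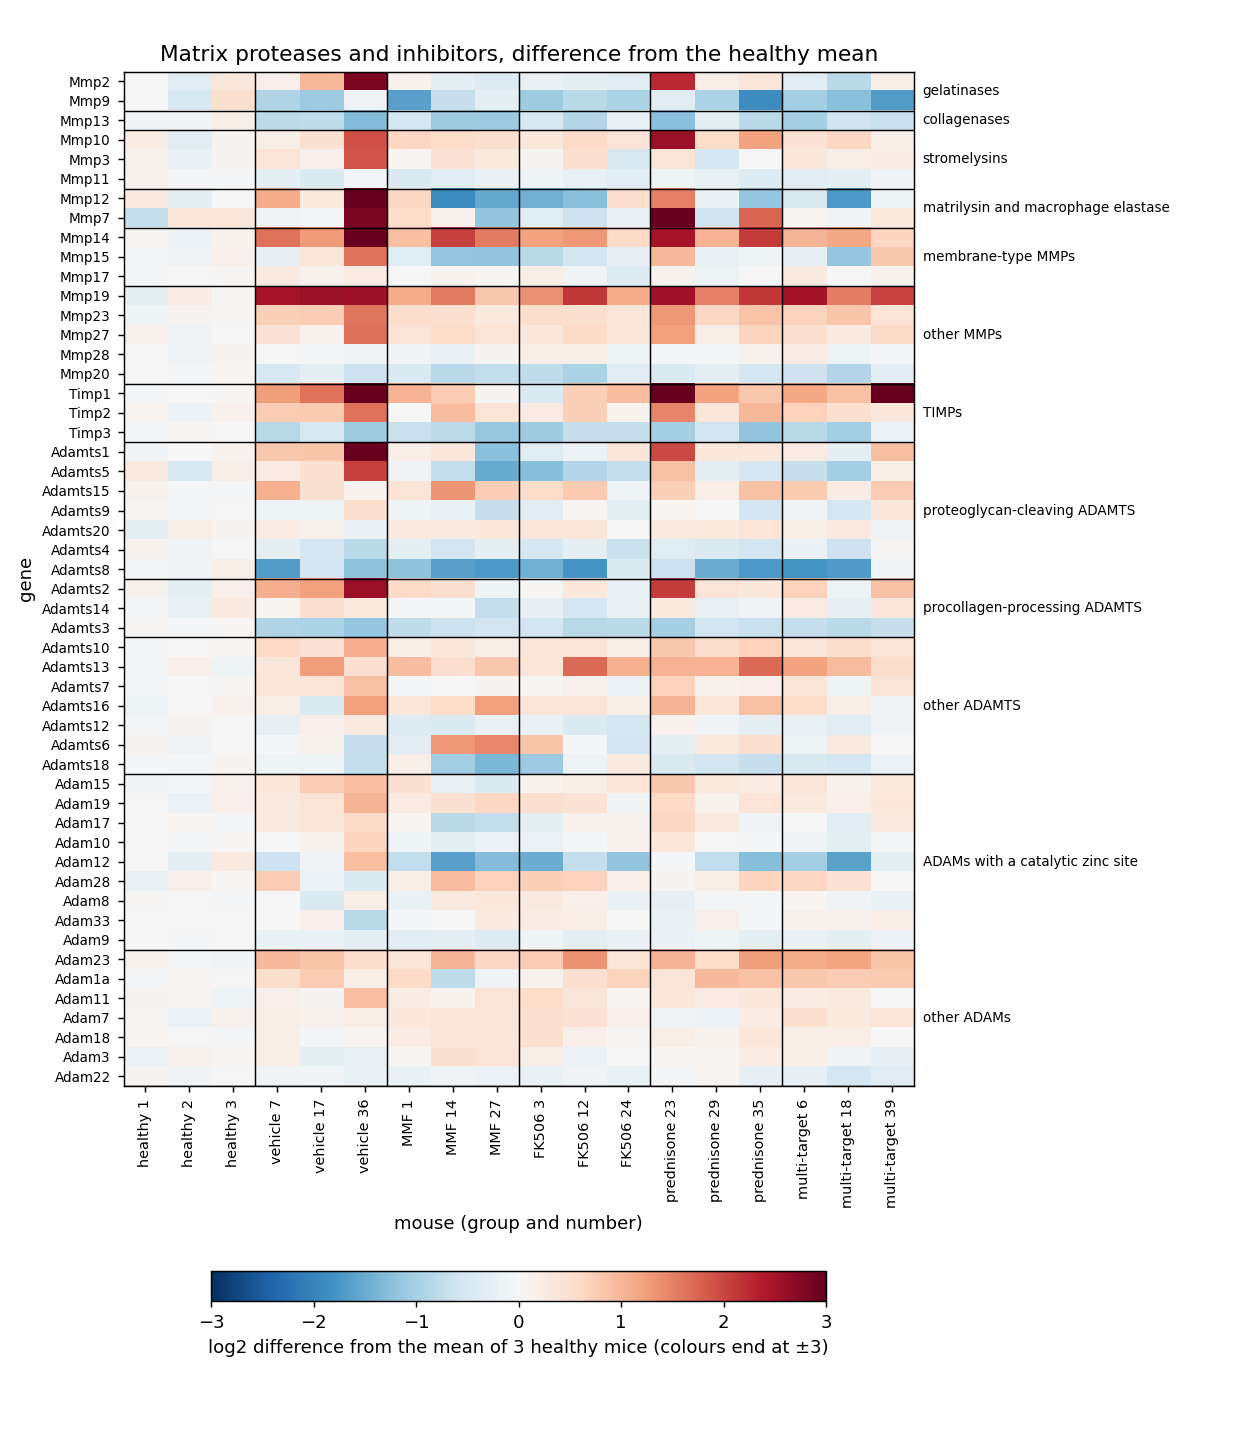
Log2 difference of each of the 52 genes (rows, grouped by role) in each of the 18 mice (columns, grouped by treatment) from the mean of the 3 healthy mice, with colours ending at 3 in either direction. Vehicle mouse 36 and prednisone mouse 23 carry most of the darkest red cells. The rows of Mmp19 and Adamts3 keep 1 colour across all 15 MRL/lpr mice. So do other rows, among them Mmp14, Mmp23 and Adamts10 (higher) and Timp3 and Mmp13 (lower).

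The first comparison asked which members differed between diseased and healthy kidney. The membrane-anchored collagenase Mmp14 rose 4.05-fold and the basement membrane protease Mmp19 rose 5.78-fold in vehicle-treated MRL/lpr mice, while the procollagen-processing Adamts3 fell 2-fold and the abundant inhibitor Timp3 fell 1.73-fold. In all, 13 of 52 members (25%) passed an adjusted p of 0.05 in limma, where 22.4% of all genes did. The 8 members that rose were Mmp19, Mmp14, Adamts2, Timp2, Mmp23, Adam23, Adamts10 and Adam15 (15.4%, against 15.7% of all genes). The 5 that fell were Adamts3, Mmp13, Timp3, Adamts4 and Adam9 (9.62%, against 6.76% of all genes). As a family these genes were therefore called about as often as other genes of this tissue. The median difference of the members was 0.31 on the log2 scale, from -1.15 to 2.84, and that of all genes was 0.094.

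The count rested on individual libraries. It was 6 without vehicle mouse 36, where the count over all genes also fell from 3369 to 1490, between 6 and 7 without any 1 of the healthy mice, and 22 when libraries were weighted by their spread. The median of the members was 0.17 both without vehicle mouse 36 and with weighted libraries. With quantile-normalized values 13 members were still called, but the split was 6 higher and 7 lower, the median of the members was 0.018, and that of all genes moved from 0.094 to -0.065. Mmp14, Adamts10 and Adamts3 were called in all 13 alternatives, and Mmp19 and Mmp23 in all 12 that they entered.

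Among the inhibitors, Timp1, Timp2 and Timp3 took different courses. Timp1, the inducible TIMP that also binds the precursor of Mmp9, was at 5.02, 5.04 and 5.09 in healthy mice and at 6.30, 6.69 and 10.66 in vehicle mice 7, 17 and 36. The groups did not overlap, but vehicle mouse 36 lay far above its group. The difference was 2.84 ± 0.98 (SE, n = 3 mice per group), with a limma adjusted p of 0.0502, so Timp1 was not called. Leaving out vehicle mouse 7 or vehicle mouse 17 gave 3.63 (limma adjusted p = 0.0206) and 3.44 (0.0364), while leaving out vehicle mouse 36 gave 1.45 (0.274).

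Timp2, which inhibits MMPs broadly and also joins Mmp14 in activating the precursor of Mmp2, was at 11.13, 10.90 and 11.21 in healthy mice and at 11.83, 11.86 and 12.69 in vehicle mice. Every vehicle mouse was above every healthy mouse. Timp2 rose by 1.05 ± 0.30 (SE, n = 3 per group; limma adjusted p = 0.0218), and the call ended without vehicle mouse 36 (0.77, adjusted p = 0.127), healthy mouse 1 or healthy mouse 2 (0.0578 and 0.0783). Timp3 was at 17.01, 17.12 and 17.04 in healthy mice and at 16.22, 16.59 and 15.99 in vehicle mice. All vehicle mice were below all healthy mice, and Timp3 fell by 0.79 ± 0.24 (SE, n = 3 per group; limma adjusted p = 0.0306). Its difference was -0.42 with quantile normalization (adjusted p = 0.177), and the call also ended without vehicle mouse 36 (0.128), vehicle mouse 7 (0.0554) or any 1 healthy mouse (0.0752 to 0.0898).

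**Figure D2:**
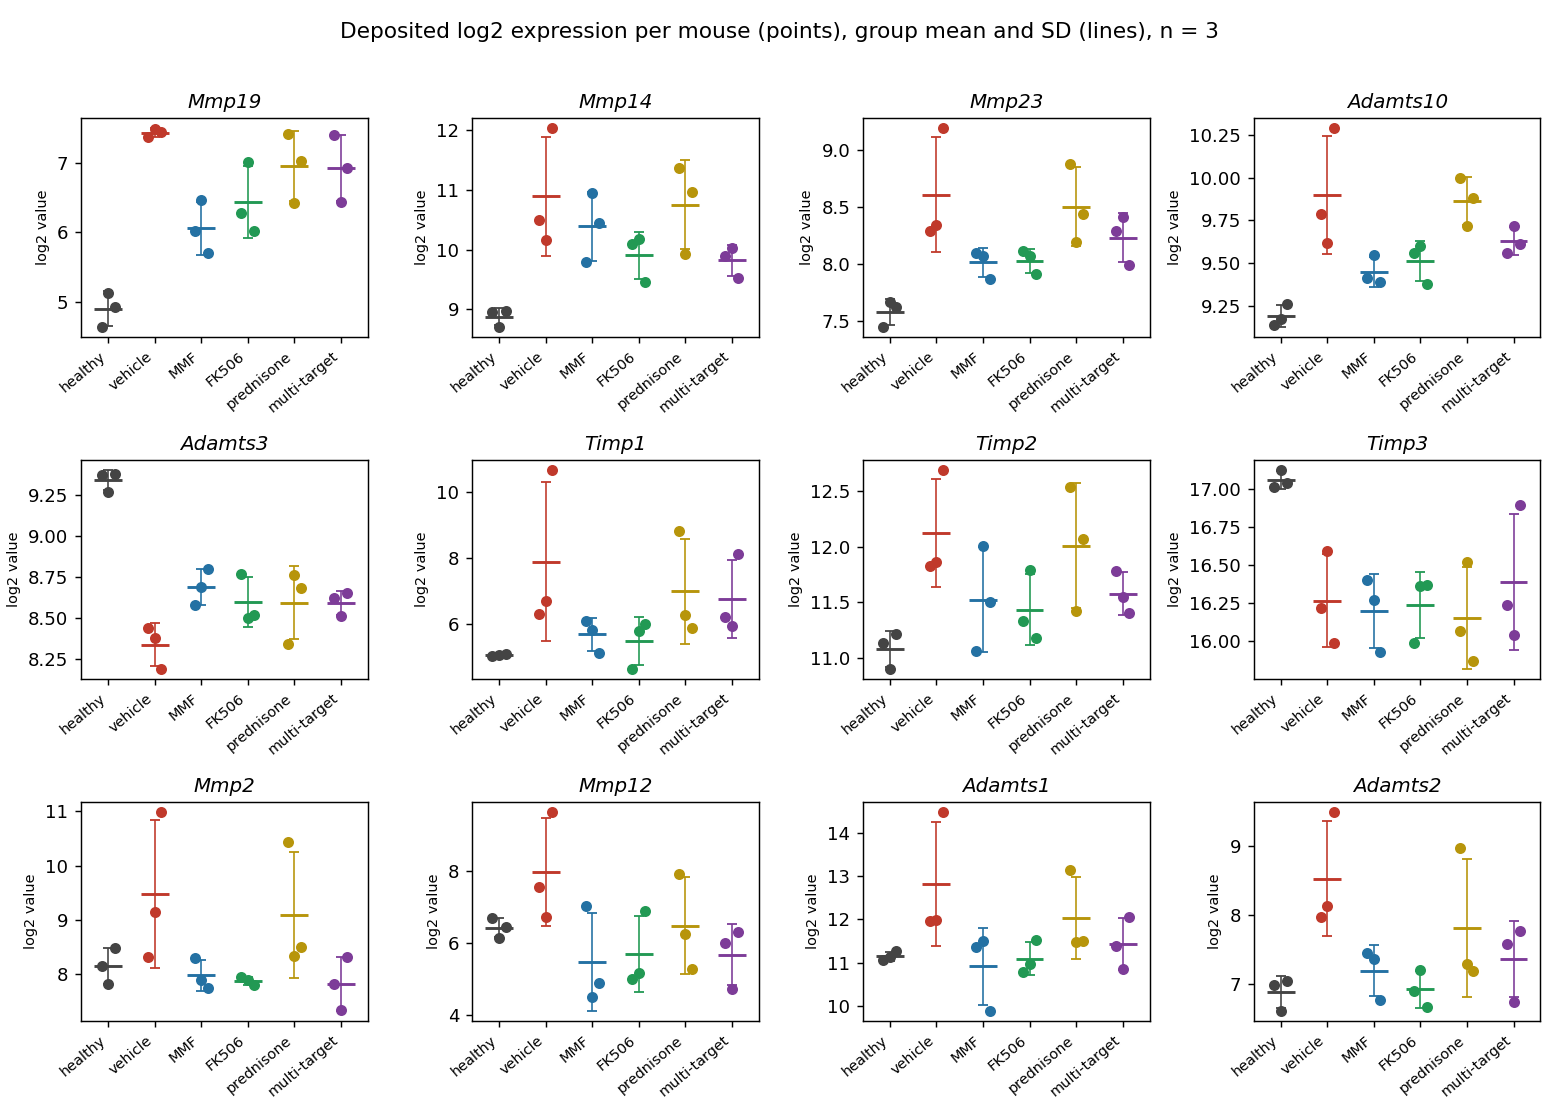
Deposited log2 level (vertical axis) of 12 genes in the 6 groups, with 1 point per mouse, the group mean as a horizontal line and its SD as a bar (n = 3). Mmp19 has vehicle mice close together between 7.37 and 7.49, whereas Timp1, Mmp2, Mmp12 and Adamts1 have vehicle mouse 36 far above the other vehicle mice.

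Mmp19, which acts on components of the basement membrane, was at 4.64, 5.13 and 4.93 in healthy mice and at 7.37, 7.49 and 7.44 in vehicle mice. The vehicle mice lay within a narrow band well above the healthy mice. Mmp19 rose by 2.53 ± 0.31 (SE, n = 3 per group; limma adjusted p = 9.71e-05), and its difference stayed between 1.87 and 2.64 over the 12 alternatives. The gene lies on chromosome 10 and shares 789 exon bases with the antisense gene Tmem198b, which differed by 0.26 (adjusted p = 0.455). The sources used here do not say whether the libraries kept strand, so reads of such neighbours cannot be told apart.

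Mmp14, the membrane-type MMP that cuts fibrillar collagen and activates Mmp2, was at 8.95, 8.71 and 8.98 in healthy mice and at 10.50, 10.16 and 12.03 in vehicle mice. The groups were apart, with vehicle mouse 36 highest of all 18 mice. Mmp14 rose by 2.02 ± 0.44 (SE, n = 3 per group; limma adjusted p = 0.00552), and by 1.45 without vehicle mouse 36 (adjusted p = 0.0271). Mmp23, a small MMP without the usual carboxy-terminal domain, was at 7.45, 7.67 and 7.62 in healthy mice and at 8.29, 8.34 and 9.19 in vehicle mice. It rose by 1.03 ± 0.22 (SE, n = 3 per group; limma adjusted p = 0.00475), again with no overlap.

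The gelatinases, which digest denatured collagen and basement membrane collagen, did not pass the test. Mmp2 was at 8.16, 7.82 and 8.48 in healthy mice and at 8.32, 9.14 and 10.98 in vehicle mice, groups that overlapped. Its difference was 1.33 ± 0.58 (limma adjusted p = 0.109). It was 1.91 without vehicle mouse 7 (adjusted p = 0.0253) and 0.57 without vehicle mouse 36 (0.526). Mmp9 was at 6.98, 6.48 and 7.44 in healthy mice and at 6.06, 5.87 and 6.86 in vehicle mice, with a difference of -0.70 ± 0.41 (limma adjusted p = 0.226). The values of Mmp9 also overlapped, and Mmp9 was called lower when libraries were weighted (0.038).

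Of the ADAMTS proteases that remove the ends of procollagens, Adamts2 and Adamts3 moved in opposite directions. Adamts2, the principal enzyme for the amino-terminal propeptide of the fibrillar collagens, was at 6.99, 6.62 and 7.05 in healthy mice and at 7.97, 8.13 and 9.49 in vehicle mice. It rose by 1.64 ± 0.46 (SE, n = 3 per group; limma adjusted p = 0.0212). The mice did not overlap, yet the call ended without vehicle mouse 36 (1.16, adjusted p = 0.125), healthy mouse 1 (0.0551) or healthy mouse 2 (0.0757). Adamts3, which also processes the lymphatic growth factor VEGF-C, was at 9.37, 9.27 and 9.38 in healthy mice and at 8.44, 8.38 and 8.19 in vehicle mice. It fell by 1.0 ± 0.12 (SE, n = 3 per group; limma adjusted p = 9.71e-05), with all vehicle mice below all healthy mice. Adamts14, of the same group, differed by 0.29 (adjusted p = 0.377).

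Among the proteoglycan-cleaving ADAMTS enzymes 1 of 7 was called. Adamts4, an aggrecanase, was at 9.09, 8.89 and 9.01 in healthy mice and at 8.70, 8.49 and 8.19 in vehicle mice, and it fell by 0.54 ± 0.17 (SE, n = 3 per group; limma adjusted p = 0.0369). The call ended without vehicle mouse 17, vehicle mouse 36 or any 1 of the healthy mice, with adjusted p up to 0.183. Adamts1, which cuts versican and aggrecan, was at 11.05, 11.14 and 11.26 in healthy mice and at 11.97, 11.99 and 14.47 in vehicle mice. Mice did not overlap, but the difference of 1.66 ± 0.62 missed the threshold (limma adjusted p = 0.0669). Adamts1 was called without vehicle mouse 7 (2.08, adjusted p = 0.0358) or vehicle mouse 17 (2.07, 0.0425), and was at 0.83 without vehicle mouse 36 (0.357). Its chromosome 16 neighbour Adamts5, another aggrecanase, was at 10, 9.26 and 9.90 in healthy mice and at 9.97, 10.19 and 11.79 in vehicle mice, with overlap and a difference of 0.93 ± 0.49 (limma adjusted p = 0.184).

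Of the other ADAMTS genes, Adamts10, which is known for its part in building fibrillin microfibrils, rose. It was at 9.14, 9.17 and 9.26 in healthy mice and at 9.79, 9.62 and 10.29 in vehicle mice, a difference of 0.71 ± 0.14 (SE, n = 3 per group; limma adjusted p = 0.00281) with no overlap. Adamts13, which cuts von Willebrand factor, was at 8.13, 8.30 and 8.02 in healthy mice and at 8.50, 9.40 and 8.65 in vehicle mice. The groups of Adamts13 did not overlap, and the difference of 0.70 ± 0.31 did not pass the test (limma adjusted p = 0.112).

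The ADAM changes were smaller. Adam15, a disintegrin and metalloproteinase of endothelial and epithelial cells, was at 10.97, 11.02 and 11.19 in healthy mice and at 11.37, 11.80 and 11.96 in vehicle mice, and rose by 0.66 ± 0.21 (SE, n = 3 per group; limma adjusted p = 0.0384). Adam23, which lacks a working catalytic site and binds other proteins, was at 7.45, 7.24 and 7.24 in healthy mice and at 8.27, 8.14 and 7.83 in vehicle mice, and rose by 0.77 ± 0.24 (limma adjusted p = 0.0317). Adam9, a widely expressed sheddase, was at 12.55, 12.50 and 12.54 in healthy mice and at 12.34, 12.31 and 12.24 in vehicle mice, and fell by 0.23 ± 0.075 (limma adjusted p = 0.0385). None of these 3 overlapped between groups, and each lost its call without any 1 of the healthy mice and under quantile normalization. Without vehicle mouse 17 all 3 lost it, without vehicle mouse 36 Adam15 and Adam9 lost it, and without vehicle mouse 7 Adam23 lost it, with adjusted p up to 0.175 for Adam15, 0.15 for Adam23 and 0.14 for Adam9.

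The principal sheddases were not called. Adam17, which releases TNF and its receptors, was at 10.91, 10.99 and 10.87 in healthy mice and at 11.18, 11.28 and 11.49 in vehicle mice. The mice were apart, with a difference of 0.40 ± 0.22 (limma adjusted p = 0.21), and a fit of these 2 groups alone called it (0.0408). Adam10, which cuts Notch receptors and cadherins, was at 12.29, 12.22 and 12.29 in healthy mice and at 12.28, 12.37 and 12.92 in vehicle mice. Its groups overlapped, and the difference was 0.25 ± 0.15 (limma adjusted p = 0.234).

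Counted without a test, 19 of 52 members had every vehicle mouse above every healthy mouse (36.5%, against 32.6% of all genes) and 8 had every vehicle mouse below (15.4%, against 19.8%). Members that the naming rule did not single out differed between -1.15 (Adamts8) and 0.85 (Mmp10), and none of them was called.

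**Figure D3:**
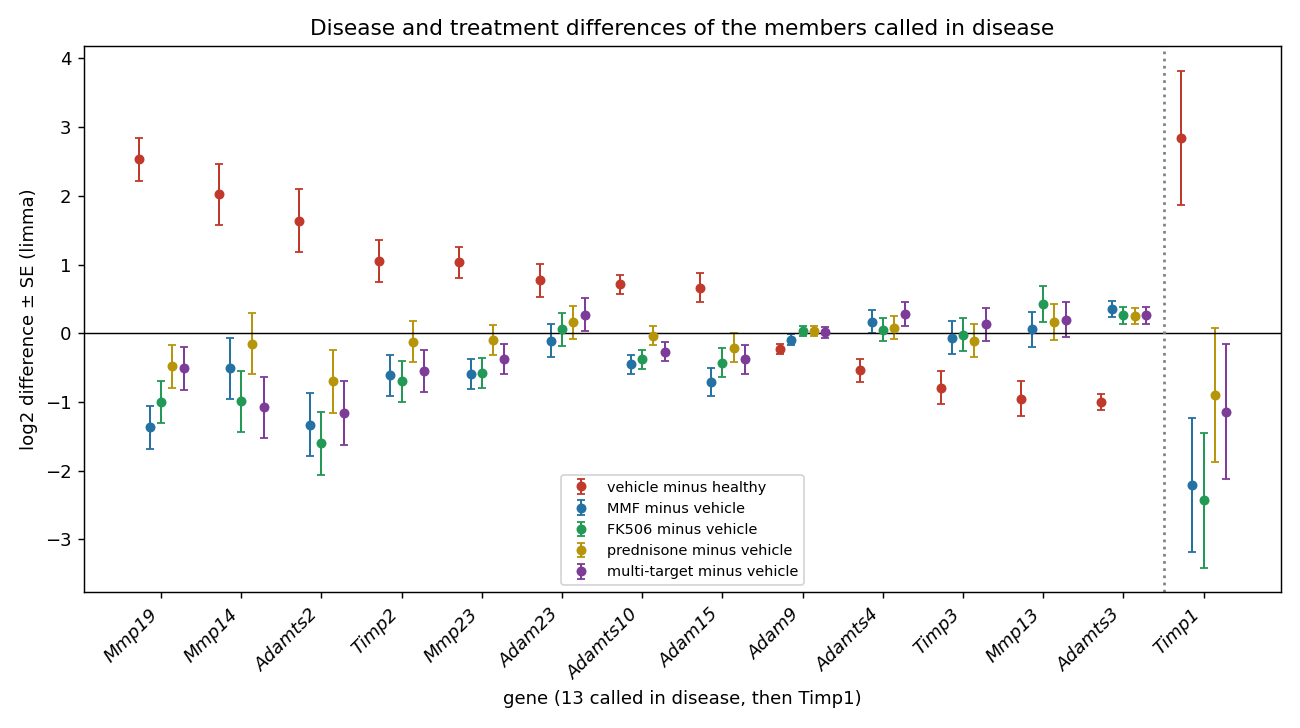
Log2 difference with its limma SE (vertical axis) for the 13 members called between vehicle and healthy mice and for Timp1 (horizontal axis), in the disease comparison and in each treatment against vehicle (colours). The disease differences of the 13 called members run from 2.53 for Mmp19 down to -1.0 for Adamts3, and that of Timp1 is 2.84. The drug comparisons share the vehicle mice with the disease comparison.

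A cluster of 7 MMP genes within 427 kilobases of chromosome 9 (7272514 to 7699585, GRCm38) held Mmp13, Mmp12, Mmp3, Mmp10, Mmp27, Mmp20 and Mmp7, in that order. Its members differed in direction. Mmp13, the collagenase of rodents, was at 7.51, 7.51 and 7.77 in healthy mice and at 6.82, 6.82 and 6.29 in vehicle mice. It fell by 0.95 ± 0.26 (SE, n = 3 per group; limma adjusted p = 0.0172) with no overlap, and the call ended without vehicle mouse 36 (0.0925) or healthy mouse 3 (0.0682). The other 6 were not called. Mmp12, the macrophage elastase, was at 6.69, 6.15 and 6.45 in healthy mice and at 7.55, 6.72 and 9.63 in vehicle mice, a difference of 1.54 ± 0.85 (limma adjusted p = 0.199) that was 0.70 without vehicle mouse 36.

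Mmp7, matrilysin, an epithelial enzyme that cuts syndecan and E-cadherin, was at 3.38, 4.44 and 4.43 in healthy mice and at 3.99, 4.05 and 6.92 in vehicle mice. Groups overlapped and the difference was 0.90 ± 0.85 (limma adjusted p = 0.467). It turned to -0.068 without vehicle mouse 36 and to -0.28 with quantile normalization. In prednisone-treated mice Mmp7 was at 7.20, 3.48 and 5.84 in mice 23, 29 and 35, so that prednisone mouse 23 had the highest value of all 18. Between the stromelysins of the cluster, Mmp10 was highest in prednisone mouse 23 (8.07) and Mmp3 in vehicle mouse 36 (7.17).

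Promoters of 5 of the 7 clustered genes are shown because they hold a motif in common. The windows searched for the other 2, Mmp12 and Mmp27, hold no match to it. RefSeq promoter windows (GRCm38.p6, 250 bases before to 50 after the start) were found for 32 of 52 members. Only the first listed window of a gene was searched, and 4 members, among them Mmp12 and Mmp7, have more than 1. The AP-1 motif TGANTCA, which reads the same on both strands, occurred in 5 of the 32 (15.6%), against 5.45% of 11201 genes with windows, and all 5 lie in the chromosome 9 cluster. The NF-kappaB motif, GGGA and CC with 4 free bases between them on either strand, occurred in 6 (18.8%, against 26.2%), and the STAT motif TTCNNNGAA, the same on both strands, in 1, Mmp23 (3.12%, against 7.22%). No match overlapped another motif in the printed stretches. The last 100 bases before each start are printed 5′ to 3′, all on the plus strand, with the AP-1 match in capitals. They are chr9:7272414-7272513 for Mmp13, chr9:7445722-7445821 for Mmp3, chr9:7502242-7502341 for Mmp10, chr9:7628131-7628230 for Mmp20 and chr9:7691990-7692089 for Mmp7.
Mmp13: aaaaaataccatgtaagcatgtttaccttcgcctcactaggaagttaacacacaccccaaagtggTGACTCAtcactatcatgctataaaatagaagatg
Mmp3: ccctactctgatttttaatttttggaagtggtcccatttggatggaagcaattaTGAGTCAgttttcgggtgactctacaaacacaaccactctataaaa
Mmp10: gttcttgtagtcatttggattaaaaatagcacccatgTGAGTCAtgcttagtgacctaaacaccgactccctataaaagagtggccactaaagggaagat
Mmp20: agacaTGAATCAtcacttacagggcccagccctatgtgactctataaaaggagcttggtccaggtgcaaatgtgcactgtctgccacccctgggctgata
Mmp7: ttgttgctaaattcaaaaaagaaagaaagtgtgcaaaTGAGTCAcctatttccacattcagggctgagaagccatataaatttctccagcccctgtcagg
The match starts 35 bases before the start site in Mmp13, 46 in Mmp3, 63 in Mmp10 and Mmp7, and 95 in Mmp20. The letters are TGAGTCA in Mmp3, Mmp7 and Mmp10, TGACTCA in Mmp13 and TGAATCA in Mmp20. Of these 5 genes, Mmp13 fell in vehicle mice, Mmp20 differed by -0.47, and Mmp3, Mmp10 and Mmp7 differed by 0.82, 0.85 and 0.90, so the motif was present in genes with either sign. A match is a description of these letters and shows no bound factor.

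**Figure D4:**
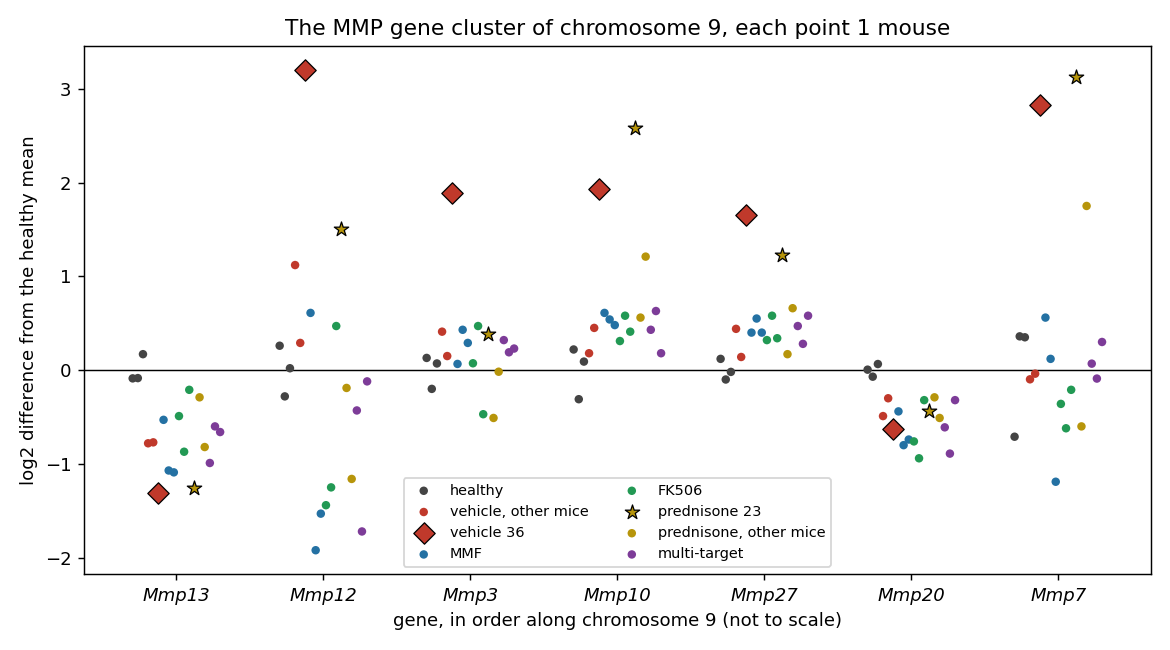
Log2 difference from the healthy mean (vertical axis) of the 7 clustered MMP genes (horizontal axis, in chromosome order), with 1 point per mouse and marked symbols for vehicle mouse 36 and prednisone mouse 23. These mice are high in Mmp12, Mmp10, Mmp27 and Mmp7, vehicle mouse 36 alone is high in Mmp3, and both are low in Mmp13.

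The spread of the members between mice of a group was, by its median, wider than that of all genes in every group but MMF. The median SD of the members within a group was 0.11 in healthy, 0.35 in vehicle, 0.27 in MMF, 0.23 in FK506, 0.34 in prednisone and 0.22 in multi-target mice, against 0.08, 0.22, 0.27, 0.17, 0.19 and 0.16 for all genes. Vehicle mouse 36 had the highest value of the 18 mice in 22 of 52 members (42.3%), where it was highest in 25.9% of all genes. In 18 members (34.6%, against 16.7% of all genes) vehicle mouse 36 and prednisone mouse 23 were the 2 highest mice, among them Timp1, Timp2, Mmp2, Mmp7, Mmp12, Mmp14, Adamts1, Adamts2 and Adamts5. These counts were chosen after the values were seen.

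The sums of fibroblast, macrophage and T cell markers were high in the same mice. Each sum adds unlogged values and is given as log2, so abundant genes weigh most. The summed level of 8 fibroblast and myofibroblast markers was between 12.51 and 12.92 in healthy mice, 13.86 and 15.71 in vehicle, 13.25 and 14.12 in MMF, 12.75 and 13.63 in FK506, 13.04 and 14.59 in prednisone and 13.29 and 13.61 in multi-target mice. The highest sums of their groups were those of vehicle mouse 36 and prednisone mouse 23. Of the vehicle mice, mouse 36 was highest in Col1a1, Col1a2, Pdgfrb, Lum and Acta2, but not in Pdgfra, Dcn or Postn. Of the prednisone mice, mouse 23 was highest in each of these genes but Dcn. For 7 macrophage and monocyte markers the ranges were 12.06 to 12.19 in healthy, 13.83 to 14.74 in vehicle, 12.16 to 13.50 in MMF, 13.00 to 13.50 in FK506, 13.28 to 14.72 in prednisone and 12.95 to 13.36 in multi-target mice, again led by mice 36 and 23. The sum of 6 T cell markers was between 10.81 and 11 in healthy, 11.52 and 12.52 in vehicle, 10.88 and 11.74 in MMF, 11.50 and 11.67 in FK506, 11.28 and 12.11 in prednisone and 11.15 and 11.62 in multi-target mice, with mice 36 and 23 highest in their groups. In healthy mice most of the T cell sum was Cd8a, at 10.63, 10.68 and 10.42, which was not called in disease (0.39, limma adjusted p = 0.249). The sum of 4 B and plasma cell markers was also highest in vehicle mouse 36, at 10.16, but in prednisone mouse 35 among the prednisone mice, at 9.64. Of the fibroblast markers 5 of 8 rose in disease and of the macrophage markers 6 of 7, where 15.7% of all genes rose. Of the T cell markers 5 of 6 rose, and of the B and plasma cell markers 3 of 4. Without vehicle mouse 36 the calls of Pdgfrb (limma adjusted p = 0.103), Dcn (0.0593), Lum (0.0997), Acta2 (0.173) and Cd79a (0.19) ended. Pdgfra (0.044) and the called macrophage and T cell markers stayed called without that mouse. None of the fibroblast or macrophage markers was at 0 in any mouse. Their part in the protease and inhibitor values was not tested.

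**Figure D5:**
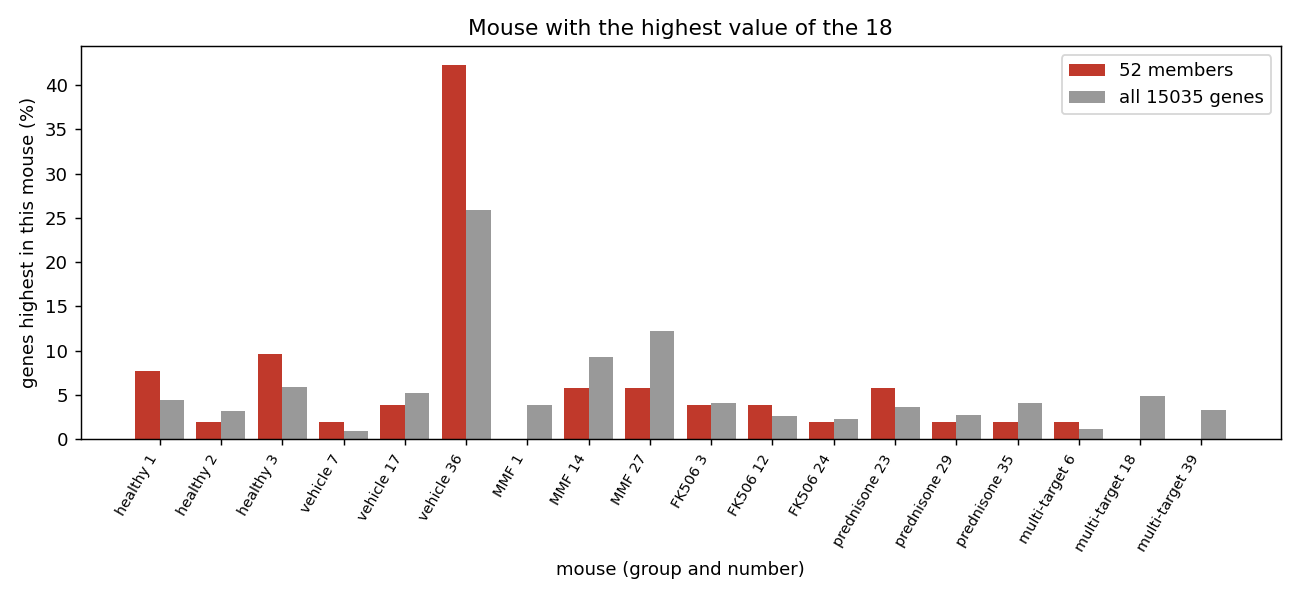
Percentage of genes whose highest value among the 18 mice lies in the given mouse (vertical axis), for the 52 members (red) and for all 15035 genes (grey). Vehicle mouse 36 holds the highest value of 42.3% of members and 25.9% of all genes.

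The next comparisons asked what each treatment changed relative to vehicle. Mmp19 fell under MMF, and no other member was called in any of the 4 treatment comparisons. Mmp19 was at 7.37, 7.49 and 7.44 in vehicle mice and at 6.01, 6.46 and 5.70 in MMF mice 1, 14 and 27. The groups were apart and Mmp19 fell by 1.37 ± 0.31 (SE, n = 3 per group; limma adjusted p = 0.0486), 1 of 52 members (1.92%), where 1.58% of all genes were called and 1.45% were lower. All 3 MMF mice stayed above all healthy mice. The call ended in 7 of 12 alternatives, including those without MMF mouse 14 (-1.58, adjusted p = 0.158), MMF mouse 27 (-1.20, 0.242), vehicle mouse 17 (-1.35, 0.0866) or vehicle mouse 36 (-1.37, 0.217).

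Estimates under MMF were lower than vehicle for 38 of 52 members (73.1%, against 56% of all genes), and 15 members had all MMF mice below all vehicle mice (28.8%, against 12.4%). The median difference was -0.30, and -0.054 for all genes. That of the members was -0.072 with quantile normalization, where all genes were at 0.038, -0.14 without the lowest 25% of genes, -0.19 with weighted libraries and -0.13 without vehicle mouse 36. Adam17 was at 10.99, 10.12 and 10.18 in MMF mice, every one below the vehicle mice, with a difference of -0.89 (limma adjusted p = 0.0524). Adamts5 was at 9.61, 9.01 and 8.21, also below every vehicle mouse, with a difference of -1.71 (adjusted p = 0.0645). Vehicle mouse 36, at 11.79 in Adamts5, weighs on that difference. MMF mouse 1 stood closest to vehicle in Adam17, Adamts5 and Mmp12. It had the highest macrophage and T cell sums of its group, but the lowest fibroblast (13.25) and B and plasma cell (8.68) sums. Without it 17 members were called, 3 higher (Adam3, Adamts3 and Adamts6) and 14 lower, while the count over all genes went from 238 to 5538. The count was 11 without vehicle mouse 7, 18 with weighted libraries and 0 without MMF mouse 14, MMF mouse 27, vehicle mouse 17 or vehicle mouse 36.

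FK506 gave no called member in limma, as it gave no called gene (0% of all genes). At an unadjusted p of 0.05, 17 members (32.7%) passed, against 19.9% of all genes. Mmp19 was at 6.27, 7.01 and 6.02 in FK506 mice 3, 12 and 24, below every vehicle mouse, and differed by -1.0 (adjusted p = 0.171). Timp1 was at 4.63, 5.77 and 5.98, also below every vehicle mouse, and differed by -2.43 (adjusted p = 0.202). Adamts5 was at 8.46, 8.84 and 9.01 and differed by -1.88 (adjusted p = 0.171). Vehicle mouse 36 weighs on the differences of Timp1 and Adamts5. It was at 10.66 in Timp1, where the other vehicle mice were at 6.30 and 6.69. In Adamts5 it was at 11.79, and the others at 9.97 and 10.19. In 15 members all FK506 mice lay below all vehicle mice (28.8%, against 12.2% of all genes), and the median difference was -0.24, where that of all genes was -0.013. The median of the members was -0.13 without vehicle mouse 36, -0.36 without vehicle mouse 17, -0.11 with quantile normalization and -0.12 with weighted libraries.

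Prednisone also gave no called member in limma (0% of all genes), and 1 member, the stromelysin Mmp3, passed at an unadjusted p of 0.05 (1.92%, against 3.15% of all genes). Mmp3 was at 5.67, 4.77 and 5.27 in prednisone mice, overlapping the vehicle values of 5.69, 5.43 and 7.17 in vehicle mice 7, 17 and 36 at their lower end. Its difference was -0.86 (adjusted p = 0.943). Mmp14 stayed high under prednisone, at 11.36, 9.92 and 10.97 in mice 23, 29 and 35, which overlapped the vehicle mice and differed from them by -0.15. In 1 member all prednisone mice lay below all vehicle mice (1.92%), with no share of all genes given beside it here. The median difference of the members was -0.11, and 0.026 for all genes. It rested on single mice, at 0.019 without vehicle mouse 36, -0.19 without vehicle mouse 7, -0.27 without prednisone mouse 23, -0.028 without prednisone mouse 29 and -0.041 without prednisone mouse 35, and was -0.019 with weighted libraries.

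The multi-target treatment gave no called member in limma (0% of all genes), with 9 members at an unadjusted p of 0.05 (17.3%, against 15.6% of all genes). Its median difference was -0.19 for the members and -0.021 for all genes. Mmp14 was at 9.90, 10.03 and 9.53 in multi-target mice 6, 18 and 39, below every vehicle mouse, a difference of -1.08 (adjusted p = 0.27). Mmp12 was at 6.0, 4.71 and 6.31, again below every vehicle mouse, and differed by -2.29 (adjusted p = 0.235). Mmp2 was at 7.82, 7.34 and 8.33, which overlapped the lowest vehicle mouse, and differed by -1.65 (adjusted p = 0.221). Vehicle mouse 36 weighs on each of these differences. It was at 12.03 in Mmp14, 9.63 in Mmp12 and 10.98 in Mmp2. The other vehicle mice were at 10.50 and 10.16, 7.55 and 6.72, and 8.32 and 9.14. Mmp19 was at 7.40, 6.44 and 6.93, with multi-target mouse 6 within the range of the vehicle mice. In 7 members all multi-target mice lay below all vehicle mice (13.5%), again with no share of all genes given beside it.

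Each treatment was then set against the healthy mice, all 4 comparisons sharing those 3 animals. Under MMF 8 members (15.4%) were called, against 15.9% of all genes. Under FK506 there were 3 (5.77%, against 7.27%), under prednisone 11 (21.2%, against 16.7%) and under multi-target 3 (5.77%, against 6.98%). Member counts were therefore near those of other genes in each treatment. The members split into 2 higher and 6 lower under MMF (9.56% and 6.37% of all genes), 2 and 1 under FK506 (5.73% and 1.54%), 8 and 3 under prednisone (13.4% and 3.29%) and 2 and 1 under multi-target (5.33% and 1.65%), and with quantile normalization into 0 and 7, 0 and 3, 4 and 7, and 2 and 3.

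Mmp19 remained above healthy in every treatment group, by 1.16 under MMF (limma adjusted p = 0.0274), 1.53 under FK506 (0.0121), 2.05 under prednisone (0.000932) and 2.02 under multi-target (0.00235). Adamts3 remained below healthy, at 8.58, 8.69 and 8.80 in MMF mice, 8.77, 8.50 and 8.52 in FK506 mice, 8.34, 8.76 and 8.68 in prednisone mice and 8.62, 8.51 and 8.65 in multi-target mice. No treated mouse reached the lowest healthy value of 9.27. The differences of Adamts3 were -0.65, -0.74, -0.75 and -0.74, with limma adjusted p of 0.00696, 0.00367, 0.00154 and 0.00378. The FK506 call of Mmp19 ended without FK506 mouse 12 or healthy mouse 1, its MMF call ended without MMF mouse 14 or any 1 healthy mouse, and both ended with quantile normalization. Adamts3 was called in all 4 comparisons under every alternative run.

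Timp3 was lower than healthy under MMF (-0.86, limma adjusted p = 0.0307) and prednisone (-0.91, 0.0208). It differed by -0.82 under FK506 and by -0.67 under multi-target, where it was not called. Mmp14 was higher than healthy under MMF (1.51, adjusted p = 0.0348) and prednisone (1.87, 0.0115), and differed by 1.02 under FK506 and 0.94 under multi-target without a call. Adam23 was higher under FK506 (0.83, 0.047), prednisone (0.94, 0.0169) and multi-target (1.04, 0.0196). The MMF calls of Timp3 and Mmp14 ended with quantile normalization and without MMF mouse 14, MMF mouse 27 or any 1 healthy mouse. Under prednisone the call of Timp3 ended with quantile normalization and without prednisone mouse 23, prednisone mouse 35 or any 1 healthy mouse, and that of Mmp14 ended without prednisone mouse 23. Adam23 lost its FK506 call with quantile normalization, a pseudocount of 16, and without FK506 mouse 3, FK506 mouse 12 or any 1 healthy mouse. Its prednisone call ended with quantile normalization and without prednisone mouse 23, prednisone mouse 35, healthy mouse 2 or healthy mouse 3, and its multi-target call without multi-target mouse 6, multi-target mouse 18 or any 1 healthy mouse. Whether the treatments differ from each other in these genes was tested only for multi-target. The other members called were Adam9, Mmp13, Adamts8 and Mmp20 below healthy under MMF, and Adamts10, Adamts13, Mmp10, Mmp23 and Timp2 above and Mmp13 below healthy under prednisone; Adamts8, Mmp20 and Mmp10 are named because their calls were seen here. Counts again rested on single mice, and counts over all genes were not set beside those that follow. Under MMF they ran from 1 without healthy mouse 1 or healthy mouse 3 to 15 without MMF mouse 1, and 2 members were called without MMF mouse 14, MMF mouse 27 or healthy mouse 2. Under prednisone 4 were called without prednisone mouse 23, 5 without prednisone mouse 35 and 5 to 6 without any 1 healthy mouse. Under FK506 1 was called without FK506 mouse 12 or healthy mouse 1, and under multi-target 6 without multi-target mouse 39.

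Multi-target against each single treatment called no member in limma, and no gene at all (0% in each of the 3 comparisons). At an unadjusted p of 0.05 there were 2 members against MMF (3.85%, against 7.49% of all genes), 0 against FK506 (0%, against 0.406%) and 4 against prednisone (7.69%, against 3.35%). Mmp19 was 0.87 ± 0.31 higher under multi-target than under MMF (limma adjusted p = 0.644). Mmp2 differed from prednisone by -1.26 and Mmp10 by -1.03, both with prednisone mouse 23 highest of its group. Without MMF mouse 1, 3 members were called against MMF, and 9 with weighted libraries. No counts over all genes stand beside these, so the gains cannot be read as particular to the members.

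Genes that activate, inhibit or serve these proteases were read from lists. In the plasminogen system, which makes the MMP activator plasmin, 3 of 8 genes rose in vehicle mice (Plat, Plaur and Serping1) and 2 fell (Plg and Serpinf2). Serping1, the C1 inhibitor, rose by 2.32 ± 0.31 (limma adjusted p = 0.000174), and Serpinf2, the plasmin inhibitor, fell by 1.05 ± 0.25 (0.00959). Plau, urokinase, the most abundant gene of the list at 14.99 in healthy and 14.47 in vehicle mice, was not called (adjusted p = 0.0912). Among 5 proprotein convertases and other activators none was called, with Furin at 13.39 in healthy and 13.23 in vehicle mice, and at an adjusted p of 0.513. None of 6 astacin proteases and their enhancers was called, although the brush border protease Mep1a differed by -1.09 (adjusted p = 0.0962). Of 5 other inhibitors Cst3, cystatin C, rose by 0.85 ± 0.20 (0.00866).

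Among 8 partners of the ADAMs, Rhbdf2, the iRhom that carries Adam17 to the surface, rose by 1.1 ± 0.25 (limma adjusted p = 0.00699), beside the uncalled Adam17. Of 14 ADAM substrates 10 rose and 2 fell in vehicle mice, where 15.7% of all genes rose and 6.76% fell. Tnfrsf1b, a TNF receptor, was at 7.22, 7.43 and 7.72 in healthy mice and at 10.27, 10.55 and 11.04 in vehicle mice, and rose by 3.16 ± 0.31 (adjusted p = 1.48e-05). Kl, the kidney-derived ageing suppressor klotho, fell by 1.45 ± 0.39 (adjusted p = 0.0167). Of 11 ADAMTS-like proteins and proteoglycans 6 rose, among them Adamtsl4 (1.49 ± 0.33, adjusted p = 0.00632) and the small proteoglycan Bgn (1.46 ± 0.38, 0.015). Among 6 inducers and uptake partners of MMPs, Lrp1, the endocytic receptor that clears MMPs and TIMPs, rose by 1.81 ± 0.27 (0.00037), and Cd44 and Lcn2 rose by 3.22 ± 0.68 (0.00466) and 4.43 ± 1.18 (0.0164). Without vehicle mouse 36 the difference of Lcn2 was 2.88 and its call ended (limma adjusted p = 0.0892), while Rhbdf2 was at 0.70 (0.0117) and Cd44 at 2.25 (0.0173). The calls of Plat (limma adjusted p = 0.13), Plaur (0.264), Serpinf2 (0.0595), Cst3 (0.0503), Kl (0.099) and Bgn (0.0871) also ended without that mouse. Of the ADAM substrates counted as risen, Tnf (0.066), Cx3cl1 (0.2), Cxcl16 (0.0804) and Notch2 (0.115) lost the call as well. So did Adamtsl1 (0.055), Vcan (0.0914), Acan (0.0777) and Dcn (0.0593) of the ADAMTS-like proteins and proteoglycans. Leaving out 1 healthy mouse ended the calls of Plat and Plaur for each of the 3, of Plg for mice 1 and 3, of Kl for mice 1 and 2, of Bgn for mouse 2 and of Lcn2 for mouse 1. Serping1, Tnfrsf1b, Adamtsl4 and Lrp1 were called without any 1 vehicle or healthy mouse. Several of these lists hold genes of leukocytes and fibroblasts, whose markers rose as given above, and the part of cell numbers was not tested.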

How the data were processed

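Kidney cortex RNA of 18 mice was sequenced after TruSeq RNA library preparation, per the labels' protocols. The deposited values are log2 expression levels normalized by the authors, and limma and the mm10 build are named in the submitters' processing notes. The sources used here name no aligner, counter, annotation or strand setting. Between 75% and 75.5% of values per library were whole reads, within 0.001 reads, after 1 scaling factor was removed, including all libraries of 34 of the 52 members; reads and depths come from these factors.

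Differences were tested with limma 3.58.1 (R 4.3.3) on the log2 values, as group means over all 18 libraries with a mean-dependent prior, and Benjamini-Hochberg adjustment over 15035 genes at 0.05. "Called" means past that threshold, and SD, SE and n refer to mice. The fit was tested on simulated data. Levels per kilobase use GENCODE exon lengths (release M21, GRCm38).

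Genes named with values per mouse were the TIMPs, well-known members (Mmp2, Mmp7, Mmp9, Mmp12, Mmp14, Adam10, Adam17, Adamts1, Adamts5 and Adamts13), other members called in disease with groups apart, and members called in a treatment comparison. From the lists of other pathway genes, the 3 with the smallest disease p and the 2 most abundant could be named. Others are named where their call ended without vehicle mouse 36. Members and lists were chosen with earlier results of these data known. The motifs, the printed promoters, the 200-kilobase rule for a cluster, the order by reads per kilobase and the method of the library weights (gene by gene) were chosen after seeing the data. Alternatives were quantile normalization, a pseudocount of 16, leaving out the lowest 25% of genes, a fit of 2 groups, no mean-dependent prior, library weights, and leaving out libraries. A few results on genes outside the 52 members are not reported here.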

Additional observations from a re-analysis of the deposited data

How the results depend on the processing

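No paired analysis was possible because the labels give no pairing of mice between groups. The count of called members in vehicle against healthy mice was 13; it was 8 without the lowest 25% of genes, 22 with library weights and 6 to 16 when 1 mouse was left out. Under MMF against vehicle it was 1, and became 0 with quantile normalization, without the lowest 25% of genes, with only the 2 groups and without vehicle mouse 17 and FK506 mouse 12, 18 with library weights, and 0 to 17 when 1 mouse was left out. Against healthy mice, the MMF count of 8 became 4 without the lowest 25% of genes, 33 with library weights and 1 to 15 when 1 mouse was left out. The FK506 count of 3 became 1 without the lowest 25% of genes, 14 with only the 2 groups, 5 with no mean-dependent prior, 28 with library weights, 1 without vehicle mouse 17 and FK506 mouse 12, and 1 to 4 when 1 mouse was left out. The prednisone count of 11 became 6 without the lowest 25% of genes, 21 with library weights and 4 to 12 when 1 mouse was left out. The multi-target count of 3 became 5 with quantile normalization, 1 without the lowest 25% of genes, 12 with only the 2 groups, 5 with no mean-dependent prior, 32 with library weights and 2 to 6 when 1 mouse was left out. Multi-target against MMF, 0, became 9 with library weights and 0 to 3 when 1 mouse was left out. Counts for FK506, prednisone and multi-target against vehicle, and for multi-target against FK506 and prednisone, stayed at 0 in every alternative run. Leaving out the lowest 25% of genes removes scarce members from the test. The causes of the other shifts were not tested. Where no count over all genes stands beside a member count, its shift cannot be read as particular to the members.

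Over the named members, 240 single results kept their direction and side of the threshold, 50 lost the call, 10 gained it and 2 reversed, both of Mmp7 in disease (-0.28 with quantile normalization, -0.068 without vehicle mouse 36; up to 1.40 when another mouse was left out). Library weights raised the calls of all genes too, from 3369 to 5037 in disease. Most members are scarce, at a median of 224 reads, and each group has 3 mice, so a missing call does not show that a gene was unchanged.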
